A study of Mus musculus with 4 samples.

Results

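Effector regulatory T cells were examined in tumour-draining inguinal lymph nodes as the Foxp3-positive T cells in which at least 1 of 6 effector genes was detected. A cell was taken when it had at least 300 genes, at most 10% of its unique molecular identifiers (UMIs, each standing for 1 captured transcript) from mitochondrial genes, at least 1 UMI of the T cell receptor chain gene Cd3e and of Foxp3, and none of the B cell gene Cd79a or the CD8 gene Cd8b1. It also had to hold at least 1 UMI of Itgae, Klrg1, Gzmb, Entpd1, Lag3 or Ccr6. The members were thus selected on the measured UMIs of these genes, which are described below and not tested. The selection gave 160 effector cells of 393 Foxp3 cells, among 26096 barcodes that passed the cell filter and 30824 deposited. The 233 Foxp3 cells with none of the 6 genes, called resting here, were the main comparison. A further comparison used 137 CD4 T cells with no Foxp3 UMI that carried at least 1 of the same 6 genes.

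The nodes came from C57BL/6J mice with B16F10 tumours, a transplantable mouse melanoma, implanted in both thighs. In the control group 2 mice were left without treatment. In the treated group 2 mice received indoximod, an inhibitor of the IDO tryptophan pathway, at 2 mg/ml in drinking water from day 9, together with 350 ug per day of the BTK inhibitor ibrutinib, and on day 10 a dose of 150 mg/kg of cyclophosphamide, an alkylating agent. The labels give harvest at 48 hours after cyclophosphamide for all nodes, also for those of the control mice, which received none. The barcodes end in 1 of 4 library numbers, which the labels and tables used here do not link to a mouse or a group. The libraries are therefore described one by one, no p-value is given, and the effect of treatment is not analysed here. Libraries 1 to 4 held 31, 31, 47 and 51 effector cells and 47, 62, 61 and 63 resting cells, and 2 of the 160 effector cells carried a barcode sequence that also occurs in another library.

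Regulatory T cells restrain other T cells and depend on the transcription factor FOXP3 and on interleukin-2, which they bind through the receptor chain CD25 (Il2ra). Resting regulatory T cells recirculate through lymph nodes with homing receptors such as CCR7. After antigen contact some become effector regulatory T cells, a change driven by T cell receptor signals and by IRF4, BATF and BLIMP-1 (Prdm1), and these acquire receptors for tissues and stronger suppressive machinery. Among the 6 genes, Itgae encodes CD103, an integrin chain that binds E-cadherin. Klrg1 encodes an inhibitory receptor of terminally differentiated lymphocytes, Gzmb the protease granzyme B and Entpd1 the ATP-degrading enzyme CD39. Lag3 encodes an inhibitory receptor for MHC class II, and Ccr6 the receptor for the chemokine CCL20.

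Promoter stretches of 4 genes that were higher in the effector cells are shown because BATF and its partners bind sites of the AP-1 type, written TGANTCA. They come from RefSeq promoter windows of build GRCm38.p6, lie upstream of the start site, are printed in the direction of the gene, and have the match in capitals. Prdm1 (chr10:44458763-44458822, minus strand), Fgl2 (chr5:21372613-21372672, plus strand), Tnfrsf9 (chr4:150927939-150927998, plus strand) and Ccr4 (chr9:114496654-114496713, minus strand) read as follows.
Prdm1: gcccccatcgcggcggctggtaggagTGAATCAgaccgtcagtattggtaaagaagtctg
Fgl2: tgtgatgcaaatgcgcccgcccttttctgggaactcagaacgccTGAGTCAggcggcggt
Tnfrsf9: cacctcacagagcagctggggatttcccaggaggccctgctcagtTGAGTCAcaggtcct
Ccr4: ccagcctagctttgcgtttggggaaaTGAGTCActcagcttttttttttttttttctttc
Such a match is a description of letters and not of a bound site. In the 250 bases upstream, searched on both strands, it occurred in 13 of the 195 genes higher in effector cells that had a window (6.67%) and in 251 of 5407 genes tested (4.64%). Motifs of the NF-kB type were found in 5.13% against 6.16%, and those of the interferon response type in 4.10% against 3.53%. These shares lay near those of all genes tested.

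Effector cells made up 40.7% of the Foxp3 cells (exact 95% interval 35.8% to 45.8%, which covers counting error only, here and throughout) and 0.613% of all cells past the filter. The share was 39.7% in library 1, 33.3% in library 2, 43.5% in library 3 and 44.7% in library 4. The same 6 genes were found in 5.29% of the 2590 Foxp3-negative CD4 T cells, with 7.41%, 6.57%, 2.94% and 4.72% in libraries 1 to 4. The share is a description, since the rule used these counts.

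Detection of the 6 genes moved with depth. The effector cells had a median of 7936.5 UMIs, the resting cells 5120 and the Foxp3-negative CD4 cells with an effector gene 6875. Of the 131 Foxp3 cells with the fewest UMIs 26.7% were effector cells, against 29.8% of the next 131 and 65.6% of the 131 deepest. When every cell was thinned at random to 2000 UMIs and the rule was read again, 36 of 157 Foxp3 cells were effector cells (22.9%, exact interval 16.6% to 30.3%), against 22 of 886 Foxp3-negative CD4 T cells (2.48%). By library the thinned share of Foxp3 cells was 28.0%, 10.0%, 23.7% and 29.6%, from 7, 4, 9 and 16 effector cells. At the edge of the rule stood 54 effector cells with exactly 1 UMI over the 6 genes and a median of 6860 UMIs.

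**Figure D1:**
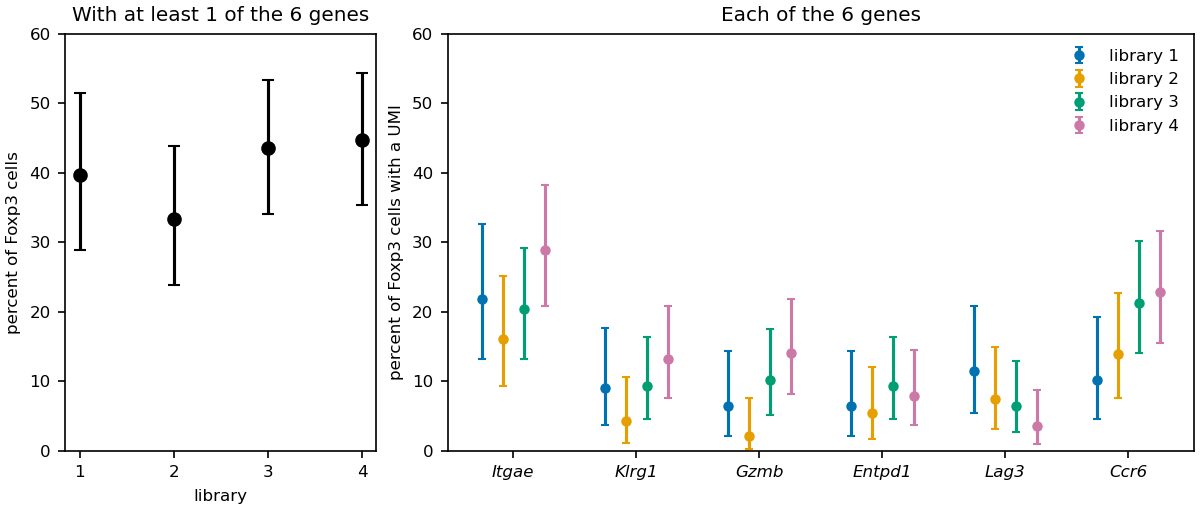
Percent of Foxp3 cells with at least 1 of the 6 effector genes in each library (left) and with a UMI of each gene in each library (right); points are shares and bars exact 95% intervals for counting error. The combined share lay between 33.3% and 44.7%, and Itgae and Ccr6 were the genes found in the most cells.

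Itgae was detected in 87 of the 160 effector cells (54.4%) and Ccr6 in 70 (43.8%). Klrg1 was found in 36 cells, Gzmb in 34, Entpd1 in 29 and Lag3 in 27. Of all 393 Foxp3 cells, 22.1% held Itgae and 9.16% Klrg1, where B cells, with a median of 3863 UMIs, held them at 0.442% and 0.0527%. CD8 T cells, with a median of 7142 UMIs, held Itgae at 17.6% and Klrg1 at 0.0774%. Klrg1 was found in 36 Foxp3 cells, 5 CD8 T cells and 3 of 2590 Foxp3-negative CD4 T cells (0.116%).

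Ccr6 and Entpd1 are also carried by B cells. Ccr6 was present in 28.2% of B cells, against 17.8% of Foxp3 cells, 1.70% of Foxp3-negative CD4 T cells and 0.929% of CD8 T cells. Entpd1 was present in 7.38% of Foxp3 cells, 332 of 9494 B cells and 0.495% of CD8 T cells. At 2000 UMIs Entpd1 was found in 1.27% of Foxp3 cells and 1.54% of B cells, so its share there is not read as different from that of B cells. The part of free B cell RNA in the Ccr6 and Entpd1 counts was not tested.

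The 6 genes were unevenly shared among the effector cells. A single gene was detected in 83 cells, 2 genes in 41, 3 in 26 and 4 in 10. Of the 36 Klrg1 cells, 31 also had Itgae (86.1%), and of the 34 Gzmb cells, 29 did (85.3%). Klrg1 and Gzmb shared 23 cells, 63.9% of the Klrg1 cells and 67.6% of the Gzmb cells. Klrg1 was the only gene in 2 cells and Gzmb in 1. By contrast Ccr6 was the only gene in 36 of its 70 cells and Lag3 in 13 of its 27, and Lag3 was found with Klrg1 in 2 cells, with Gzmb in 3 and with Ccr6 in 4. Cells with Klrg1 or Gzmb were deep, with medians of 13910 and 15171 UMIs, against 7421 for Lag3 and 7627.5 for Ccr6. Depth alone raises the chance of finding several genes in a cell, and its part was not tested.

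The libraries' shares of single genes are given as a description. Lag3 was found in 11.5%, 7.53%, 6.48% and 3.51% of the Foxp3 cells of libraries 1 to 4, from 9, 7, 7 and 4 cells. Its shares of Foxp3-negative CD4 T cells were 3.38%, 4.01%, 0.735% and 0.675%. Those of CD8 T cells were 2.54%, 2.97%, 0.956% and 0.933%. Ccr6 was found in 10.3%, 14.0%, 21.3% and 22.8% of the Foxp3 cells, and Gzmb in 6.41%, 2.15%, 10.2% and 14.0%.

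The cells matched the label of regulatory T cells by genes outside the rule. Among effector cells, 149 (93.1%) had a UMI of Ikzf2, which encodes the regulatory T cell factor Helios, 110 (68.8%) of Il2ra and 120 (75.0%) of Ctla4, the inhibitory receptor that takes costimulatory ligands from dendritic cells. Foxp3 itself stood at 319, 252, 230 and 230 CPM (counts scaled to an equal total of UMIs in each group and library) in the effector cells of libraries 1 to 4 and at 300.1, 278, 386 and 289.8 CPM in the resting cells. Foxp3 belongs to the rule, so these levels are given as a description. Tigit was sparse, with 12 UMIs in effector cells and 1 in resting cells, and Il10, a suppressive cytokine gene, gave 4 UMIs against 0.

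Effector and resting cells were then compared gene by gene on UMIs summed over the cells of each group in each library. A gene was called when each library that held 10 or more of its UMIs over both groups gave a ratio of 1.5-fold or more, all in 1 direction, when 3 or more libraries did so, and when the exact interval of the pooled split excluded an equal level. This is a rule of size and not a significance test. Of 6796 genes tested, 252 were higher in effector cells (3.71%) and 74 lower (1.09%), 4.8% in all. The median log2 ratio over all genes tested was 0.22 on the CPM scale, and when each library was scaled by the median of gene ratios it was 0.02, with 140 genes higher (2.06%) and 135 lower (1.99%). The share of higher genes among those called was then 50.9% in place of 77.3%. Log2 ratios below are on the CPM scale and are to be read against that median of 0.22. Without library 2 the counts were 513 higher and 143 lower. The 10 genes of the rule were left out of these counts. With scaling by gene ratios the lists described below kept the sign of their medians, and their counts were 4 of 13 effector factors higher, 3 of 8 tissue repair genes higher, 5 of 22 migration genes higher and 13 of 22 naive genes lower.

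Several transcription factors of effector differentiation were higher. Of the 13 measured members of that list, 5 were called higher and none lower, with a median log2 ratio of 1.56. Prdm1, which encodes the repressor BLIMP-1, stood at 51.1, 43.9, 77.3 and 47.7 CPM in the effector cells of libraries 1 to 4 and at 9.09, 4.56, 24.0 and 2.34 CPM in the resting cells. The groups did not overlap, and the pooled log2 ratio was 2.63 (interval 1.82 to 3.54). Maf, a factor of cytokine programs in several T helper lineages, stood at 498, 417, 271 and 295 CPM against 54.6, 70.7, 77.9 and 49.1 CPM. Its lowest effector library was above its highest resting library, and its log2 ratio was 2.44. Rora, a nuclear receptor gene of tissue regulatory T cells, was at a log2 ratio of 2.36.

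Irf4, needed for effector regulatory T cells, stood at 108, 19.2, 72.5 and 106 CPM in effector cells and at 15.2, 4.56, 32.9 and 25.7 CPM in resting cells. Library 2 was low in both groups, each library was higher in effector cells, and the pooled log2 ratio was 2.09. Batf, its partner, was at 153, 143, 135 and 178 CPM against 9.09, 70.7, 86.8 and 35.1 CPM, with a log2 ratio of 1.60. Gata3 differed little, at 112 against 88.2 CPM over the pooled cells and a log2 ratio of 0.35, and was not called. The lineage factor Tbx21 (8 UMIs against 0) was too sparse for the rule.

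**Figure D2:**
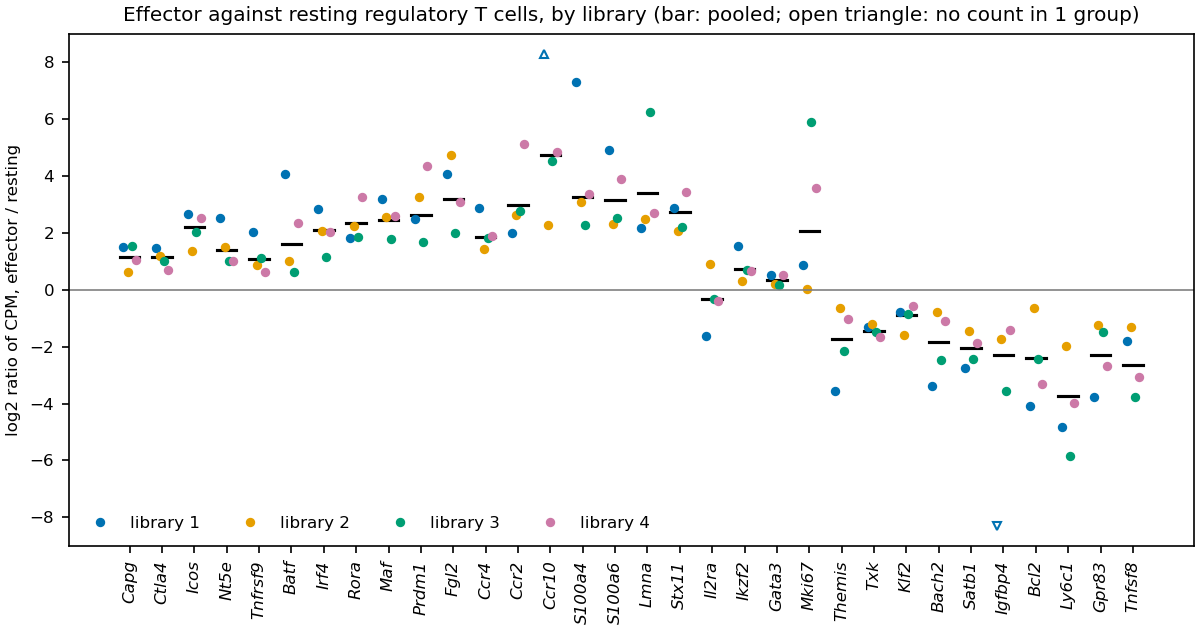
Log2 ratio of CPM, effector over resting cells, for 32 genes; coloured points are the 4 libraries, black bars the pooled cells, and open triangles libraries with no count in 1 of the groups. Prdm1, Maf, Icos and S100a4 lie above 0 and Bcl2, Satb1, Bach2 and Ly6c1 below 0 in each library, whereas the libraries of Il2ra lie on both sides of 0.

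Costimulatory and checkpoint receptors included 3 called genes of 11 measured, all higher. Icos, a costimulatory receptor that sustains effector regulatory T cells, stood at 466, 277, 514 and 485 CPM in effector cells and 72.8, 107, 126 and 84.1 CPM in resting cells. These groups did not overlap, and the log2 ratio was 2.22. Ctla4 stood at 338, 126, 329 and 221 CPM against 121, 54.7, 165 and 136 CPM. It was higher within each library although effector library 2 lay below resting libraries 3 and 4, and its log2 ratio was 1.14. Nt5e, encoding CD73, which completes the degradation of ATP to adenosine begun by CD39, was at a log2 ratio of 1.40. Pdcd1, encoding PD-1, had 40 UMIs against 23 and was not called. Among 16 members of the TNF receptor and NF-kB list, Tnfrsf9 (4-1BB) was the called gene, at a log2 ratio of 1.08.

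The interleukin-2 axis did not follow. None of the 12 members of the IL-2 and STAT5 list was called, and the list's median log2 ratio was -0.04. Il2ra stood at 150, 271, 312 and 212 CPM in effector cells and at 467, 144, 392 and 278 CPM in resting cells. The direction differed between libraries, with log2 ratios of -1.64, 0.92, -0.33 and -0.39. Ikzf2 was higher in effector cells within each library, at 976 against 582 CPM over the pooled cells, but library 2 was under 1.5-fold and it was not called. Of 16 measured genes of regulatory T cell identity, Il1r2, Capg and Ctla4 were called higher and Gpr83 lower. Il1r2, the decoy receptor for interleukin-1, stood at 60.6, 54.8, 35.4 and 39.5 CPM against 3.03, 6.84, 2.99 and 2.34 CPM, an 11.3-fold difference from 90 and 6 UMIs. Gpr83, a receptor gene typical of regulatory T cells, was at a log2 ratio of -2.30.

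Molecules of suppression and repair rested on few UMIs in resting cells. Ebi3, a subunit of the suppressive cytokine interleukin-35, gave 82 UMIs in 40 effector cells and 2 UMIs in 1 resting cell (log2 ratio 4.95, interval 3.05 to 8.02). Fgl2, a secreted suppressor, stood at 51.1, 60.3, 48.3 and 39.5 CPM against 3.03, 2.28, 12.0 and 4.67 CPM, with a log2 ratio of 3.19. Areg, the growth factor amphiregulin, gave 58 UMIs in 15 effector cells and 3 UMIs in resting cells (log2 ratio 3.86, interval 2.24 to 6.18). Of 8 measured genes of tissue repair regulatory T cells, 5 were called higher and none lower, namely Areg, Il1rl1, Ccr2, Rora and Batf. The lists share genes, so their counts are not independent. Rora and Batf are described above with the effector factors, and Ccr2 is counted again below among the tissue receptors. Il1rl1 encodes ST2, the receptor for the alarmin interleukin-33, and gave 67 UMIs in 30 effector cells and 5 in 4 resting cells. Serpinb1a, a protease inhibitor gene, was called higher at a log2 ratio of 3.88.

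Several receptors that guide cells into tissues were higher. Of 16 measured chemokine receptors and integrins, 5 were called higher, Ccr10, Ccr2, Ccr4 and Cd44 among them, and P2rx7, an ATP receptor gene, was called lower. Ccr2, the receptor for CCL2, stood at 147, 98.7, 185 and 162 CPM in effector cells and at 36.4, 16.0, 27.0 and 4.67 CPM in resting cells. Ccr10, a skin and mucosal homing receptor, gave 106 UMIs against 3 (log2 ratio 4.73, interval 3.15 to 7.03), of which 5 and 1 were left without dividing cells. Ccr4, another skin homing receptor, stood at a log2 ratio of 1.85. Fut7, whose enzyme builds the selectin ligands of skin-homing cells, and Gcnt1, which extends such glycans, were called outside the lists at 3.14 and 2.83.

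Of 22 measured genes of the naive, quiescent and lymph node homing state, 9 were called lower and none higher, with a median log2 ratio of -1.11. Satb1, a chromatin organiser gene of naive T cells, stood at 35.1, 90.5, 61.2 and 51.7 CPM in effector cells and at 233, 246, 329 and 189 CPM in resting cells. These groups did not overlap. The log2 ratio of Satb1 was -2.06, and that of Bach2, a repressor of effector genes, was -1.83. Ly6c1 was the furthest from equal of the list, at 3.19, 30.2, 3.22 and 8.17 CPM against 90.9, 119, 186 and 129 CPM, a log2 ratio of -3.72. Ccr7 (-1.03), Lef1 (-1.33), Tcf7 (-1.10) and Klf2 (-0.88) lay below 0 but were not called. The survival gene Bcl2 stood at 22.3, 129, 70.9 and 36.8 CPM against 376, 201, 383 and 367 CPM. Library 2 was the closest to equal, and the pooled log2 ratio was -2.40. Bcl2a1d, another member of the BCL-2 family, was higher at 1.45.

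Genes of migration and cell shape formed a further group, with 7 of 22 called higher and none lower. S100a4 stood at 1433, 1031, 1211 and 1104 CPM in effector cells and at 9.09, 121, 252 and 108 CPM in resting cells. S100a6 had a log2 ratio of 3.16 and Myo1f, a myosin gene of moving leukocytes, one of 2.15. Anxa1, encoding annexin A1, gave 63 UMIs in 20 effector cells against 1 UMI (log2 ratio 5.57, interval 3.04 to 10.9). Lmna, encoding the nuclear lamins A and C, had a log2 ratio of 3.41, and 22 UMIs in resting cells. Of the 17 genes of TEC kinase and T cell receptor signalling, 3 were called lower, Txk and Themis among them, at -1.45 and -1.71.

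**Figure D3:**
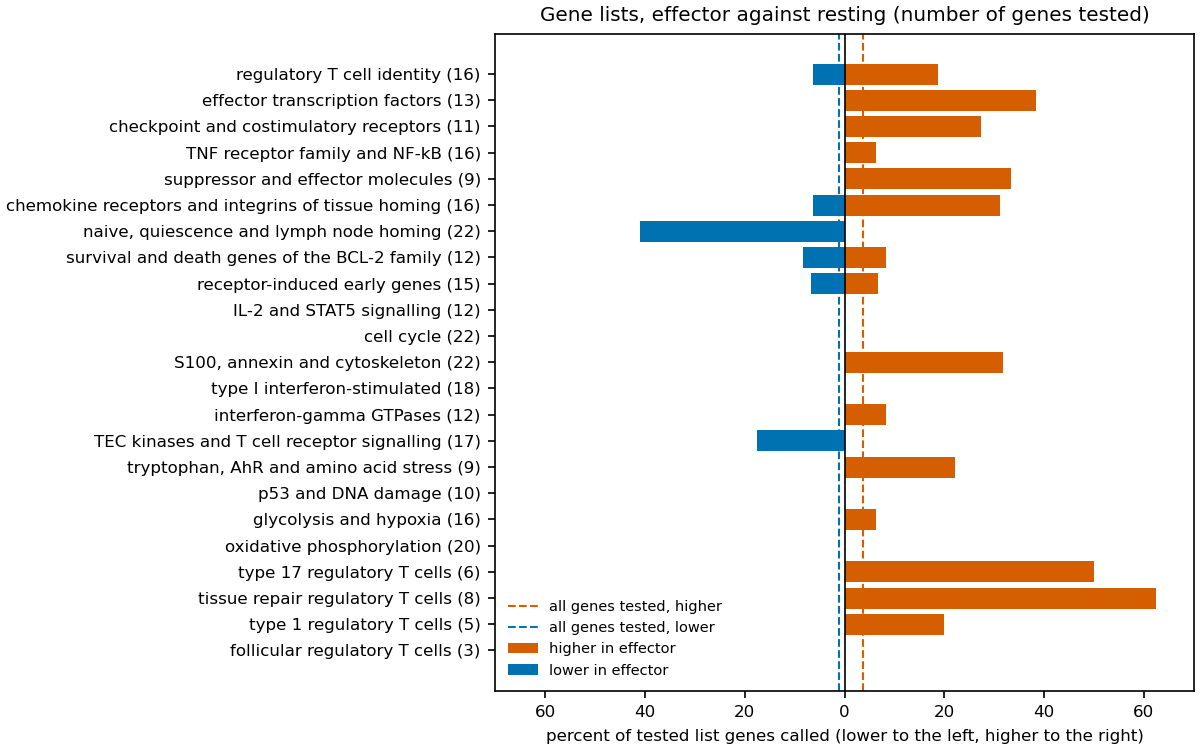
Percent of the tested genes of each list that were called higher (to the right) or lower (to the left) in effector than in resting cells, with the number of genes tested in parentheses; dashed lines mark all genes tested, 3.71% higher and 1.09% lower. Tissue repair genes had 5 of 8 called higher and naive and homing genes 9 of 22 called lower, while no gene of the cell cycle, interferon-stimulated, IL-2 or oxidative phosphorylation lists was called. Lists share some genes, Ccr2 among them.

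Dividing cells were frequent among the effector cells. A UMI of Mki67 or Top2a, both made in cycling cells, was found in 66 of 160 effector cells (41.3%, interval 33.5% to 49.3%) and 19 of 233 resting cells (8.15%, interval 4.98% to 12.4%). By library the effector shares were 45.2%, 25.8%, 48.9% and 41.2%, and the resting shares were 4.26%, 17.7%, 4.92% and 4.76%. At 2000 UMIs per cell, with the groups as selected at full depth, the effector and resting shares were 29.6% and 3.96%. The part of depth in that selection was not tested. Of the Foxp3-negative CD4 T cells with an effector gene, 35 of 137 held such a UMI (25.5%, interval 18.5% to 33.7%). The 22 cell cycle genes had log2 ratios between 0.71 and 2.11, with a median of 1.47, and none was called. Mki67 had log2 ratios of 0.88, 0.03, 5.90 and 3.56 in libraries 1 to 4, so library 2, whose resting cells held dividing cells, kept it from the rule.

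Without dividing cells, 94 effector and 214 resting cells were left and 4699 genes reached the count minimum. Of these 105 were higher (2.23%) and 25 lower (0.532%), and 45 of the higher and 11 of the lower genes had also been called with all cells. Prdm1 (log2 ratio 1.64, 21 UMIs against 12), Maf (2.80), Icos (2.16), S100a6 (3.13), Ccr2 (2.49) and Fgl2 (3.16, 35 UMIs against 7) lay in the same direction as before. Of the effector factors 3 of 10 measured were called, of the tissue repair genes 3 of 6, of the migration genes 7 of 20 and of the tissue receptors 1 of 10. The naive and homing list had 3 of 22 genes lower, with a median of -0.52, and Bcl2 was at -1.28 and Tcf7 at -0.12. Slc7a5, an amino acid transporter gene called higher at 0.97, was at -0.63 without dividing cells and at -0.29 in thinned cells. Counts of several genes were then too few to describe a level. Anxa1 was left with 2 UMIs against 1, Areg with 5 against 3, Ccr10 with 5 against 1 and Il1rl1 with 10 against 5. Ebi3 gave 23 UMIs against 0.

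The levels also differed with the number of effector genes found in a cell. Cells with none, 1, 2 and 3 or more of the 6 genes had medians of 5120, 6895, 7979 and 17722 UMIs. Bcl2 stood at 325, 124, 37.4 and 15.9 CPM across these groups and Satb1 at 246, 109.9, 30.8 and 27.0 CPM. Tcf7, a factor of naive and memory T cells, was at 161 and 165 CPM with none and 1 gene, and at 39.7 CPM with 2, and its 9 UMIs in the 36 cells with 3 or more gave the lowest level. The cells with 1 gene thus resembled resting cells in Tcf7 but not in Bcl2.

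Mki67 had the opposite pattern, with 171, 196, 965 and 1040 CPM. S100a6 was at 175, 716, 2342 and 1922 CPM and Icos at 97.4, 294, 575 and 535 CPM. Foxp3 lay between 234 and 309.8 CPM and Ikzf2 at 582, 986, 1042 and 929 CPM. Izumo1r, encoding the folate receptor 4 of regulatory T cells, was at 331, 483, 344 and 72.4 CPM, so the cells with 3 or more of the genes were low in it. These groups were made with the rule's own genes and are described only.

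**Figure D4:**
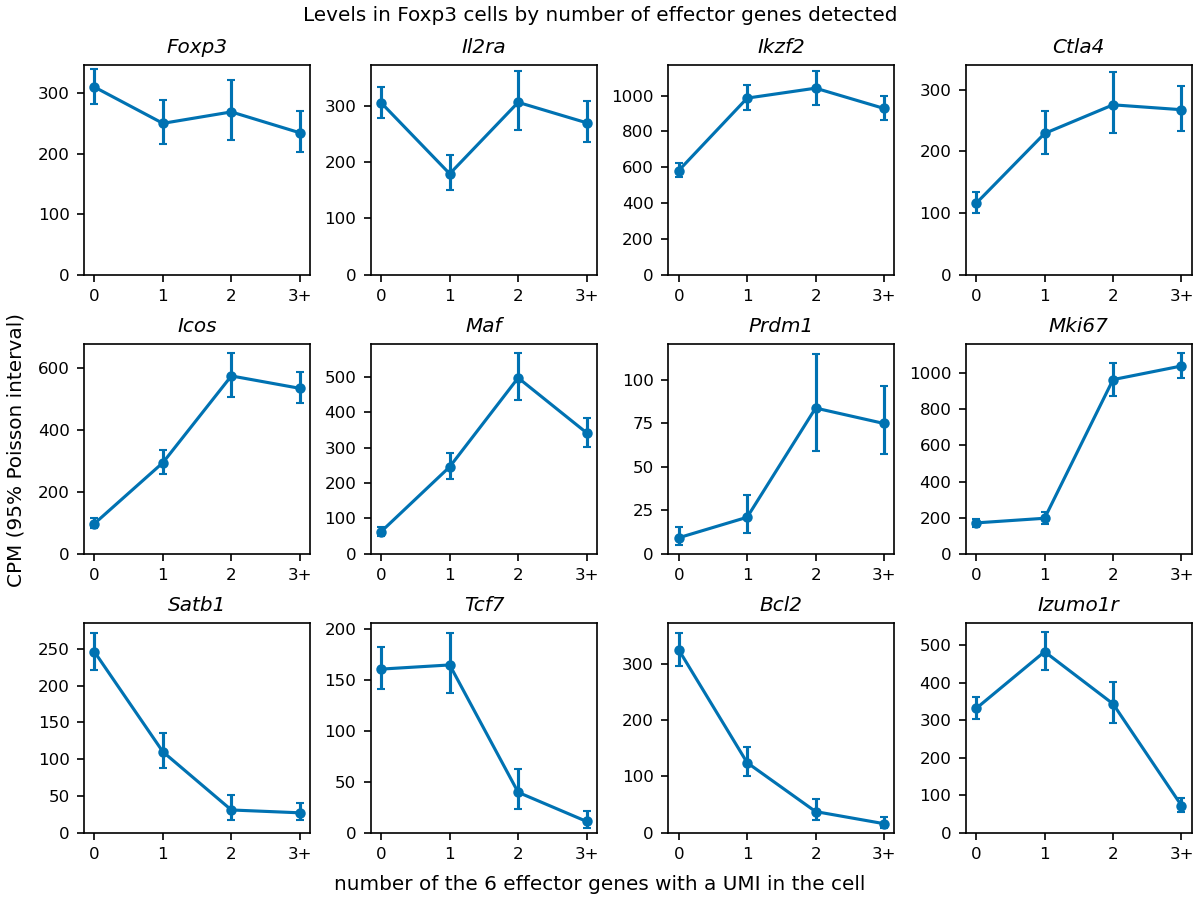
CPM of 12 genes in Foxp3 cells with 0, 1, 2 and 3 or more of the 6 effector genes detected; bars are 95% Poisson intervals of the summed counts and each axis starts at 0. Bcl2 and Satb1 are lower and Icos and Mki67 higher in the cells with more of the genes, while Foxp3 stays between 234 and 309.8 CPM.

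Within the effector cells, those with and without each of the 6 genes were compared. The splits use the rule's own genes, and each cell without a gene had to hold another of the 6. They therefore depend on each other and are described only. Median UMIs with and without the gene were 8801 and 7216 for Itgae, 13910 and 7292.5 for Klrg1, and 15171 and 7300.5 for Gzmb. The part of depth was not tested. Cells with Itgae, Klrg1 or Gzmb, which largely overlap, were low in Tcf7, with log2 ratios of -2.73, -5.28 and -4.63 against the effector cells without the gene. They were high in Il1rl1, at 2.54, 2.20 and 2.04, each with all 4 libraries in that direction. They were also high in S100a6, at 1.24, 1.39 and 1.26, and in Mki67, at 2.27, 1.06 and 1.84. In library 1, however, Mki67 stood at 272 against 248 CPM for Itgae and 264 against 261 CPM for Klrg1. For Gzmb it was lower there, at 103 against 284 CPM. Nrp1, a receptor gene of thymus-derived regulatory T cells, was lower, at -1.11, -1.57 and -2.02. The splits by Itgae, Klrg1 and Gzmb differed in Ctla4, at 0.29, -0.36 and 0.23, and in Klf2, at -0.10, 0.89 and 0.26. With each library left out in turn, an alternative chosen after seeing the data, the values of these 3 splits lay between -6.08 and -2.51 for Tcf7, 1.78 and 3.27 for Il1rl1, 0.93 and 1.92 for S100a6, 0.96 and 2.69 for Mki67 and -2.54 and -0.79 for Nrp1. Bcl2 gave 1 UMI in the 36 Klrg1 cells and 124 in the 124 cells without Klrg1 (log2 ratio -5.99, interval -11.3 to -3.49). Many of these cells were dividing, and Mki67 was found in 45 of 87 Itgae, 29 of 36 Klrg1 and 26 of 34 Gzmb cells. Without dividing cells the effector cells kept 93 of 245 Itgae UMIs, 14 of 202 Klrg1 UMIs and 35 of 201 Gzmb UMIs. Of 67 Il1rl1 UMIs 10 were left. The part of division in these splits was not tested.

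The Lag3 cells had other levels. Their 27 cells held no UMI of Il1rl1, against 67 UMIs in the other effector cells (upper end of the log2 interval -2.13). Pdcd1 gave 18 UMIs in them, 11 of these in library 4, and its log2 ratio was 1.73 in all libraries and 0.30 without library 4. Cxcr3, a receptor of type 1 responses, was at 0.99, and at 0.49 without library 4. S100a6 (-1.31) and Klf2 (-1.38), a factor of recirculation, were lower in all 4 libraries. The follicular receptor gene Cxcr5 gave 5 UMIs in these cells and 2 in the others. In the Entpd1 cells Pdcd1 was at 1.57, and at 0.00 without library 4, which held 13 of its 18 UMIs there. Irf4 was at -1.35 in these cells, from 16 UMIs, and between -2.26 and -0.92 with each library left out.

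The Ccr6 cells were nearer to the resting cells in some genes. Tcf7 was higher in them, at 120 against 44.8 CPM (log2 ratio 1.42, 4 of 4 libraries), and Ccr7 likewise, at 129 against 53.1 CPM (1.28, 3 of 4 libraries). Irf4 was also higher, at 113 against 58.1 CPM (0.97, 4 of 4 libraries). S100a6 (-0.65) and Klf2 (-0.91) were lower in all 4 libraries. Ikzf2 lay between -0.20 and 0.14 in log2 ratio over the 6 splits.

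**Figure D5:**
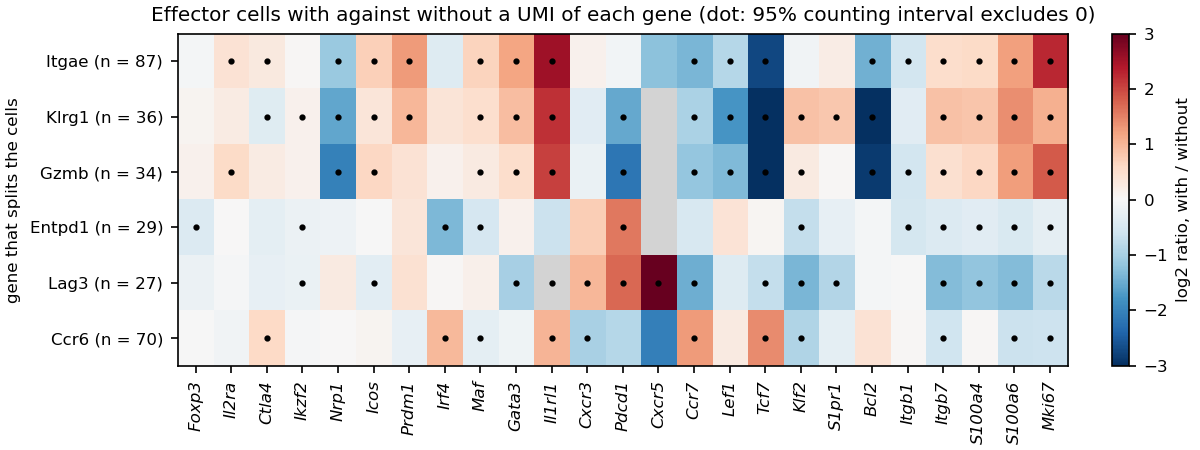
Log2 ratio of CPM between effector cells with and without a UMI of each of the 6 genes (rows, with the number of cells that have it) for 25 genes (columns); colours saturate at 3 in either direction, grey marks no count in 1 group, and dots mark 95% counting intervals that exclude 0. The rows of Itgae, Klrg1 and Gzmb share low Tcf7 and high Il1rl1 and Mki67 but differ in Ctla4 and Klf2. The row of Ccr6 has high Tcf7 and Ccr7. The rows depend on each other, since each cell without a gene holds another of the 6, and are described only.

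Against the 137 Foxp3-negative CD4 T cells with an effector gene, 6687 genes were tested, and 131 were higher in effector regulatory T cells (1.96%) and 43 lower (0.643%), 2.6% in all. The median over all genes was 0.11, and with the scaling by gene ratios it was 0.01, with 84 higher and 65 lower, or 56.4% higher in place of 75.3%. Without library 1 the counts were 204 higher and 57 lower, without library 2 they were 175 and 83, and without library 3 they were 159 and 66. The genes of regulatory T cell identity stood out in number, with 8 of 16 higher, none lower and a median log2 ratio of 1.42. Il2ra stood at 150, 271, 312 and 212 CPM against 47.8, 49.5, 52.7 and 69.4 CPM. These groups did not overlap, and the log2 ratio was 2.16. Ikzf2 was at a log2 ratio of 1.73, and Itgb8, an integrin chain that activates TGF-beta, at 2.49. Ctla4 was at 1.78 but not called, since library 2 was at -0.06.

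Other genes called against the resting cells were not called here. Maf stood at 341 against 307 CPM, Icos at 453 against 285 CPM and S100a4 at 1174 against 1096 CPM in the pooled cells, and none of these was called. Foxp3 RNA can go undetected in a cell, so regulatory T cells may be among the comparison cells. Their part in these levels was not tested. Prdm1 (1.41), Batf (1.37), Areg (2.37), Ebi3 (1.98) and Il1rl1 (1.48) were called higher in the effector regulatory T cells. Lmna was at 2.95 and Flicr, a noncoding RNA gene of the Foxp3 locus, at 2.57. Of the TNF receptor and NF-kB list 4 of 17 were called, namely Tnfrsf9, Tnfrsf4, Tnfrsf1b and Tnfrsf18.

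Cd40lg and Tnfsf8 were lower in the effector regulatory T cells. Cd40lg, the ligand by which helper T cells license B cells and dendritic cells, stood at 9.57, 32.9, 16.1 and 12.3 CPM against 93.3, 64.1, 100.2 and 104 CPM, a log2 ratio of -2.41. Tnfsf8, the CD30 ligand, was at -3.62, with 18 UMIs against 138, and it was also lower than in resting cells, at -2.63. Tcf7 was at -1.88 and Themis at -2.31. Klrd1, an NK receptor gene, was at -3.27, with 60 UMIs in 17 of the comparison cells. The rule required a Cd4 UMI in the comparison cells, which fixes the direction of Cd4 itself.

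RNA of other cell types was present beside these results. The summed level of 12 B cell markers lay between 796 and 7428 CPM in the effector cells of the 4 libraries, highest in library 1, and between 443 and 1355 CPM in the resting cells. Over the pooled cells it was 2147 against 863 CPM. The list holds Cd74, described below, which alone stood at 2840 CPM in the effector cells of library 1. The B cell gene Ighm was itself called higher in effector cells, with 1042 UMIs against 378. Its log2 ratio lay between 0.81 and 1.39 under the alternatives, and the part of B cell RNA in it was not tested. The 15 myeloid and dendritic cell markers lay between 237 and 1184 CPM against 162 and 423 CPM, with the neutrophil genes S100a8, S100a9 and Retnlg at 0 in the effector cells. The 8 NK markers lay between 14.5 and 304 CPM against 8.98 and 146 CPM, and Eomes, Klre1 and Klra8 were at 0 in the effector cells. Gamma-delta T cell markers reached at most 16.4 CPM, with Cd163l1 and Il17a at 0. The doublet caller marked 1 of the 160 effector cells. With cells carrying markers of other lineages left out, 105 effector and 186 resting cells gave 144 genes higher and 55 lower.

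The 6 genes that differed most between libraries within the effector cells were H2-Ab1, H2-Eb1, H2-Aa and Cd74 of the MHC class II pathway, Plac8 and Apol7c. H2-Ab1 stood at 1283, 101, 3.22 and 12.3 CPM in libraries 1 to 4, and Cd74, the invariant chain, at 2840, 721, 142 and 387 CPM. Cd74 was called higher than in resting cells, at 1.69, but 35.1% of its effector UMIs came from 1 cell. When Lag3 was left out of the rule its log2 ratio was -0.19. Ccl22, a chemokine gene of mature dendritic cells, was called at 2.46 from 6 cells, 1 of which held 69.7% of its UMIs. The part of other cells' RNA in these 2 genes was not tested. Hbb-bs, a haemoglobin gene, was called lower in effector cells, and 96.7% of its UMIs in the resting cells came from 1 cell.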

How the data were processed

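Single-cell RNA libraries of lymph node suspensions were made with 10x Genomics 3' version 3 reagents, per the labels' protocols. The deposited matrix holds raw counts of UMIs for 31053 genes and 30824 barcodes, with no normalisation. It was made with cellranger 5.0.0, per the file headers, on build mm10, per the submitters' processing notes. Cells past the filter held medians of 5558, 5416.5, 5321 and 5229 UMIs in libraries 1 to 4. The labels give 2000 cells and 80k reads per cell as approximate targets per sample.

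Counts were summed per cell group and library and scaled to CPM. A library is taken to be 1 suspension, and the 4 are not replicates of a known group. Exact 95% intervals (Clopper-Pearson for shares and for splits of counts, Poisson for CPM) cover counting error only. Doublets were scored with Scrublet in scanpy 1.11.5, and were kept except in an alternative. Calculations used Python 3.11.15, numpy 2.4.6, pandas 2.3.3 and scipy 1.17.1, and plots matplotlib 3.10.9. The size rule was run on simulated library sums with known fold changes. These sums did not hold counts concentrated in 1 cell, so the run cannot bear on calls where 1 cell dominates.

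The members, the 23 gene lists and the 9 marker lists were chosen with earlier results of these data known. Named genes were a set list of regulatory T cell genes, up to 4 called genes per list by size of the log2 ratio, and outside the lists the 10 higher and 6 lower genes furthest from equal with at least 40 UMIs. Against the Foxp3-negative cells they were the 8 higher and 8 lower genes by the same rule. Between libraries, genes that reached 200 CPM in 1 library were ranked by the ratio of the top to the bottom library with 20 CPM added to each, and the first 6 were taken. Other genes named as members of a list, among them Izumo1r, Tnfrsf4 and Il2rb, were chosen after their values were seen. Of 43 named genes called higher, 32 had a RefSeq promoter window. Alternatives covered the cell filter, doublets, thinning, the rule's genes, scaling, count minimum, fold and each library left out. Some genes are not reported here.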

Additional observations from a re-analysis of the deposited data

How the results depend on the processing

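No paired analysis was possible because the libraries carry no replicate numbers of the labels, so mice could not be matched by number; the cell groups themselves were compared within each library. The share of Foxp3 cells with an effector gene, 40.7%, was 19.6% with at least 2 of the 6 genes, 35.4% without Itgae and 31.6% without Ccr6 in the rule, 48.1% with Cd4 required, 22.9% when the rule was read on cells thinned to 2000 UMIs, and 30.5% without dividing cells, an alternative chosen after seeing the data.

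Genes called higher and lower than in resting cells, 252 and 74, were 80 and 21 in thinned cells, 394 and 139 with at least 2 genes, 140 and 135 with scaling by gene ratios, 447 and 135 with no count minimum, 97 and 25 at 2-fold, and 105 and 25 without dividing cells. Higher genes were 152 with at least 20 counts and 144 with other lineage markers barred. With each library left out in turn they ranged from 248 to 513 higher and from 73 to 143 lower. Against Foxp3-negative CD4 cells, 131 higher and 43 lower genes were 34 and 14 in thinned cells, 84 and 65 with scaling by gene ratios, 222 and 122 with no minimum, 31 and 16 at 2-fold, and 47 and 26 without dividing cells. Lower genes were 68 with at least 5 counts and higher genes 73 with at least 20. With each library left out they ranged from 159 to 204 higher and from 47 to 83 lower. Of the calls against resting cells, 29 higher and 15 lower genes were shared with thinned cells, in which 2400 genes were tested.

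Of 61 called genes named against resting cells, 58 lay in the same direction under every alternative that gave a finite ratio. The exceptions were Slc7a5 (-0.29 thinned, -0.63 without dividing cells), Cd74 (-0.19 without Lag3 in the rule) and Ccl22 (-3.90 with at least 2 genes, -6.07 without Ccr6 in the rule); the cause was not tested. All 22 named against the Foxp3-negative cells lay in the same direction under those alternatives. Depth limits genes such as Il10, Tbx21 and Tigit, which had under 20 UMIs in effector cells.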
